A study of Mus musculus with 2 samples.

Results

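The peroxisome genes of differentiated C3H10 cells were compared between 1 library of cells transfected with a negative control antisense oligonucleotide (ASO NC, control cells) and 1 library of cells given an oligonucleotide directed at MALAT1 (ASO MALAT1, knockdown cells). The set holds 29 genes named by symbol, and all 29 were found among the 46095 genes of the count table. They comprise 12 genes of peroxisome biogenesis (the Pex genes), 15 genes of peroxisomal lipid handling and 2 genes of peroxisomal membrane proteins. C3H10 cells are a mouse mesenchymal line that forms fat cells after hormonal induction; the labels describe them as fibroblast precursors able to form fat, and give the strain as C57BL/6. Both cultures received 100 nM of their ASO at 70% confluence and were then grown to confluence before induction. The induction medium was the same for both, with dexamethasone (5 mM as labelled), isobutyl-1-methylxanthine (0.5 mM), the PPAR-γ agonist troglitazone (0.5 mg/L) and insulin (10 ng/mL). After 2 days it was replaced by insulin alone (10 ng/mL), and RNA was taken at differentiation day 6. Which ASO sequence against MALAT1 was used for the sequenced library is not given in the sources used here, and no untransfected library was analysed here.

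Peroxisomes are membrane-bound organelles that oxidize lipids which mitochondria handle poorly, above all very long-chain and branched-chain fatty acids. Their membrane proteins are inserted by Pex3, Pex16 and Pex19, and their matrix enzymes are carried in from the cytosol by the receptors Pex5 and Pex7. Inside, acyl-CoA is shortened by an oxidase, a bifunctional enzyme and a thiolase, and the products leave for the mitochondria. Fat cells gain peroxisomes as they differentiate, and the nuclear receptors of the PPAR family are known to control several peroxisomal genes.

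In total, 58147539 counts were assigned to genes in control cells against 61653549 in knockdown cells. The targeted gene, Malat1, had 170402 counts in control against 45396 in knockdown cells, or 24.7% of the control level. The log2 fold change (log2FC) sets knockdown against control cells after scaling by edgeR's TMM factors. A gene was called lower or higher when it differed by at least 1.5-fold, with a Benjamini-Hochberg adjusted p under 0.05 in a two-sided exact binomial test run on 17356 genes. Over all genes tested, 7.27% were called lower and 4.37% higher. With 1 library per group there was no replicate check, so the test compares these libraries and not the conditions, and all 95% intervals cover counting error only. The cultures also differed in their adipocyte marker genes. Of 18 markers, 17 were tested and 15 were called lower, with a median log2FC of -1.23 and a summed level of 11839 CPM (scaled counts per 1000000) in control against 5012 in knockdown cells. Adipoq, a fat cell hormone, had 38769 counts against 16923, Fabp4, a fatty acid carrier, 151625 against 63240, and Plin1, a lipid droplet coat protein, 15926 against 7310. Lep, which encodes leptin, had 1 count against 0. The 11 fibroblast markers tested, of which 1 (Cd34) was called higher, had a median of 0.23 and a summed level of 20078 CPM in control against 22129 in knockdown cells, and Dlk1 was at 0 in both. In bulk RNA, fewer fat cells and less RNA per fat cell cannot be told apart, and the part of this difference in the values below was not tested. Of 7 muscle markers, 4 (Myod1, Myog, Myf5 and Acta1) were at 0 counts in both libraries, and Des was called lower, at 448 counts against 314. Of 6 macrophage markers, 3 (Ptprc, Adgre1 and Itgam) were at 0 in both, and Cd68 was called lower, at 172 counts against 119. Cd14 and Csf1r were not called. Cd14 had 362 counts against 536, with a log2FC of 0.46, and Csf1r only 3 against 13, with a log2FC of 1.84. Only genes tested entered the sums. They came to 7.76 and 5.05 CPM for muscle, from Des alone, and to 9.31 and 10.8 CPM for the 3 macrophage markers tested. Of 6 cartilage and bone markers, 3 were tested, with a median log2FC of 0.51 and all intervals above 0, and Col2a1 was called higher, at 378 counts against 692. Sox9 had 6570 counts against 10050, Acan was at 0 in both, and this list summed to 153 CPM in control against 211 in knockdown cells. Of 5 hepatocyte markers, the 2 tested summed to 0.711 and 0.370 CPM, and of 4 endothelial markers, the 2 tested summed to 0.849 and 0.708 CPM.

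Most of the peroxisomal genes had lower values in MALAT1-knockdown cells, by modest amounts. Their median log2FC was -0.27, against -0.0031 over all genes tested. Of the 29 genes, 26 had a log2FC below 0, which held for 50.4% of all genes tested. The 95% interval lay below 0 for 22 members and above 0 for 1 member, against 26.4% and 26.7% of all genes tested. Whether an interval leaves out 0 depends on how deeply a gene was counted, and these shares were not matched for depth. At least 1.5-fold lower were 7 members, or 24.1%, against a background of 7.27%. These were Ehhadh, Scp2, Pex11a, Amacr, Pex6, Pex16 and Pxmp2. No member was called higher, against 4.37% of all genes tested. At least 2-fold lower was 1 member (Ehhadh), or 3.45% of the set, against 4.09% of all genes tested. The share past 1.5-fold depends on how deeply a gene was counted. Of the 20 members with a mean of at least 1000 counts, 5 were called lower (25%) and 0 higher, against 2.84% and 1.43% of the 8251 genes of that class. Just inside the 1.5-fold line lay Pxmp2, with a log2FC of -0.61, and just outside it lay Acaa1b at -0.58 and Pxmp4 at -0.56. With edgeR's exact test and an assumed biological coefficient of variation of 0.1, 6 members were called lower by at least 1.5-fold, all of those 7 but Pxmp2. At that value, 1079 of the 17356 genes tested had an adjusted p under 0.05, in either direction. With an assumed value of 0.2, 0 members were called, and 117 of the 17356 genes had an adjusted p under 0.05. With so few genes passing, that 0 says little about the members. Unadjusted, p was under 0.05 for 3 members (Ehhadh, Pex11a and Scp2), and the share over all genes was not computed.

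**Figure D1:**
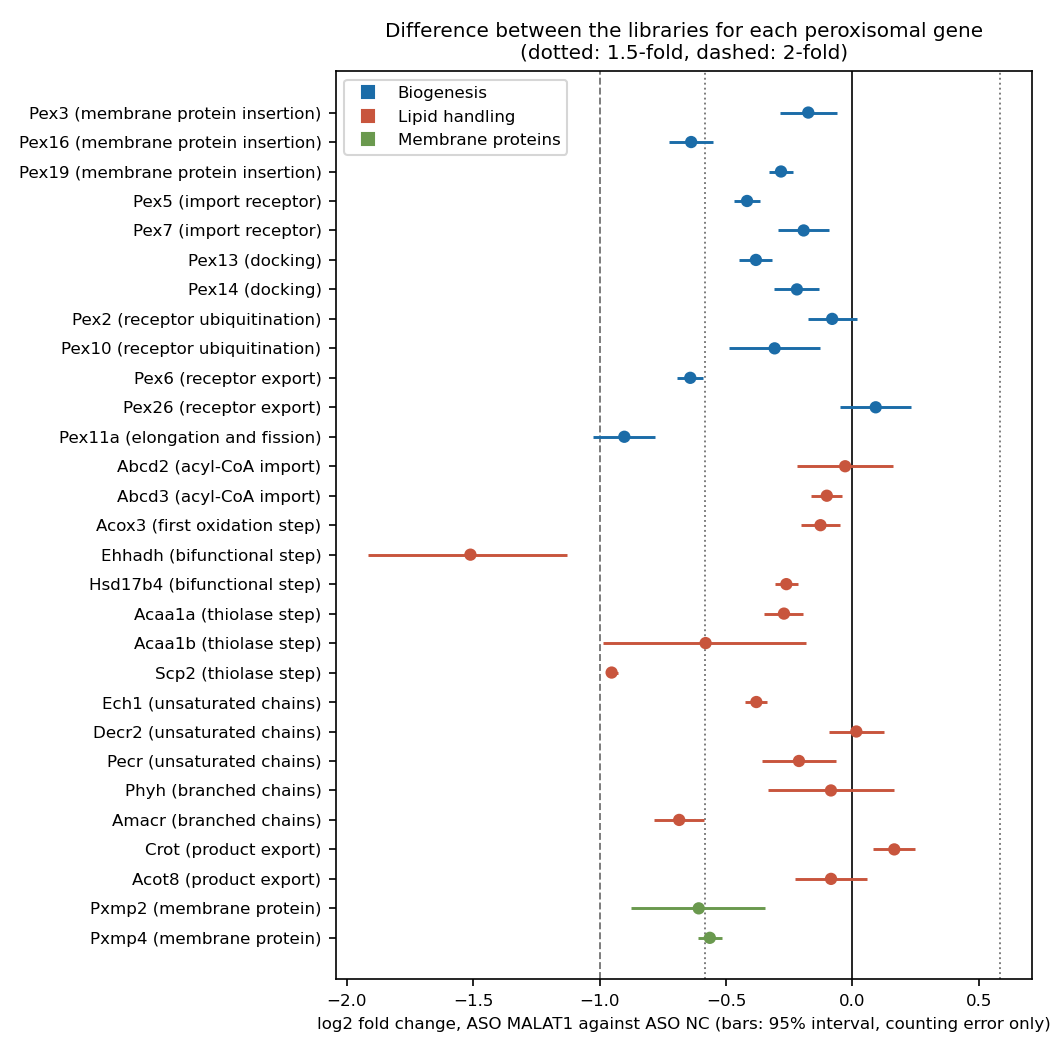
Log2 fold change of each of the 29 peroxisomal genes, MALAT1-knockdown against control cells, with 95% intervals for counting error (horizontal bars) and lines at 1.5-fold and 2-fold. Ehhadh lies past the 2-fold line, 6 further genes lie past the lower 1.5-fold line, and Crot is the gene farthest above 0.

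The levels of the members spanned a wide range. On a per-length scale (CPM per kilobase of annotated exon), the level of Scp2 was highest, at 199.96 in control against 103.3 in knockdown cells. Next in control cells came the levels of Ech1 at 72.3 and 55.5, Pxmp4 at 49.5 and 33.5 and Hsd17b4 at 42.8 and 35.7, of which Hsd17b4 stood above Pxmp4 in knockdown cells. Of the biogenesis genes, Pex6 had the highest level in control cells, at 33.5, and Pex19 in knockdown cells, at 26.7. The lowest levels were those of Ehhadh, at 1.17 and 0.41, and Acaa1b, at 1.13 and 0.755. Both of these are paired with a far more abundant gene of the same step, Hsd17b4 for Ehhadh and Acaa1a for Acaa1b.

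**Figure D2:**
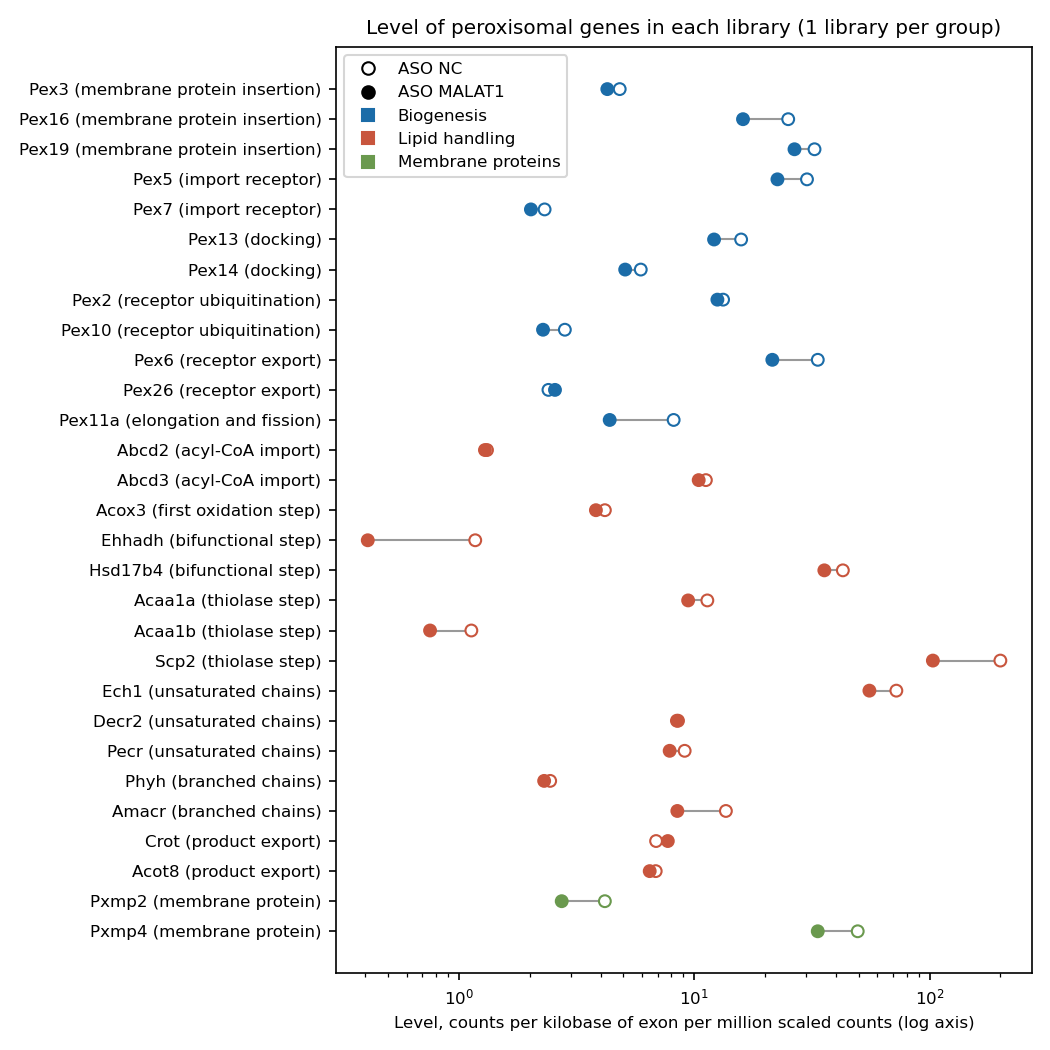
Level of each peroxisomal gene in the control library (open circles) and the knockdown library (filled circles), in CPM per kilobase of exon on a log axis. Scp2 has the highest level in both libraries, and the lines between circles show the distance between the libraries for each gene.

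Of the 12 biogenesis genes, 11 had a log2FC below 0 and 3 were called lower (Pex11a, Pex6 and Pex16), with a median of -0.30. The shares over all genes tested were 50.4% below 0 and 7.27% called lower, or 2.84% at a mean of at least 1000 counts. The largest difference was that of Pex11a, which elongates the peroxisomal membrane before division and is known to respond to PPAR ligands. Pex11a (chromosome 7, 79735957 to 79743131, minus strand, GRCm38) had 1502 counts in control against 865 in knockdown cells. Its log2FC was -0.90 (95% interval -1.03 to -0.78). Pex11g, a gene of the same family and no member of the set, had 1059 counts against 824, with a log2FC of -0.47.

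Pex6 and Pex26 belong to the machinery that pulls used import receptors back out of the membrane. Pex6, an AAA ATPase (chromosome 17, 46711463 to 46725541, plus strand), had 7340 counts in control against 5066 in knockdown cells, the most of the biogenesis genes in control cells. Its log2FC was -0.64 (95% interval -0.69 to -0.59). Pex26, the membrane anchor of Pex6, had 786 counts against 902, with a log2FC of 0.09 and an interval from -0.05 to 0.23. Of the members of this machinery, Pex6 was thus called lower, and the interval of Pex26 included 0.

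Of the genes for membrane protein insertion, Pex16 (chromosome 2, 92374676 to 92381217, plus strand) was called lower. It had 2570 counts against 1778, with a log2FC of -0.64 (95% interval -0.73 to -0.55). Its exons share 127 bases with Large2 on the opposite strand, and whether counting used strand is not given in the sources used here. Exons of Pex3, Pex14, Acox3, Acaa1a, Acaa1b, Acot8, Pecr and Pxmp2 also overlap, over more than 5% of their length, those of genes on the opposite strand. Pex19, the chaperone of newly made membrane proteins, had 7145 counts against 6324, with a log2FC of -0.28, and Pex3, its docking site on the membrane, had 1320 counts against 1259, with a log2FC of -0.17. Pex3 and Pex19 were not called.

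None of the import receptors, docking proteins and ubiquitin ligases among the members was called. Pex5, the receptor for most matrix enzymes, had 6860 counts in control against 5532 in knockdown cells, with a log2FC of -0.42. Pex7, which carries the few enzymes with an N-terminal signal, had 1615 counts against 1521, with a log2FC of -0.19. Both receptors had values below 0, as had the docking proteins. Pex13 had 4242 counts against 3505, with a log2FC of -0.38, and Pex14 had 2146 counts against 1984, with a log2FC of -0.22. Of the RING proteins that ubiquitinate the receptors, Pex10 had 537 counts against 467, with a log2FC of -0.31, and Pex2 had 1738 counts against 1770, with a log2FC of -0.08 and an interval that included 0.

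Of the 15 lipid genes, 13 had a log2FC below 0 and 3 were called lower (Ehhadh, Scp2 and Amacr), against 50.4% and 7.27% of all genes tested. Their median was -0.21, and their values ran from -1.51 for Ehhadh to 0.17 for Crot. The transporters that bring acyl-CoA into the peroxisome stood close to 0 on this scale. Abcd3, which transports branched-chain and dicarboxylic acyl-CoA, had 4266 counts in control against 4281 in knockdown cells, with a log2FC of -0.10. Abcd2, a very long-chain acyl-CoA transporter of fat tissue, had 452 counts against 477, with a log2FC of -0.03 and an interval from -0.22 to 0.16. Acox3, an oxidase of branched-chain acyl-CoA, had 2775 counts against 2737, with a log2FC of -0.13.

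The bifunctional enzymes carry out the hydration and dehydrogenation that follow the oxidase. Ehhadh, the L-bifunctional enzyme and a classical target of PPARα in liver (chromosome 16, 21761287 to 21787807, minus strand), had 202 counts in control against 76 in knockdown cells. Its log2FC was -1.51 (95% interval -1.92 to -1.13), the largest of the set and the widest interval of the genes called lower. Hsd17b4, the D-bifunctional enzyme, had 8413 counts against 7556, with a log2FC of -0.26, and was not called. Ehhadh took 2.34% of the counts of both genes in control cells (2.05 to 2.69) against 0.996% in knockdown cells (0.796 to 1.24).

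The thiolases cleave the shortened chain. Scp2 (chromosome 4, 108043839 to 108144998, minus strand) had 40131 counts in control against 22326 in knockdown cells, by far the most of the set. Its log2FC was -0.95 (95% interval -0.98 to -0.93), or 51.7% of the control level. The gene encodes both a thiolase and, from a start inside the gene, the sterol carrier protein 2, and counts per gene do not separate these. Its sequence also recurs in Scp2-ps2, which matched Scp2 at 99.6% over 1371 bases and had 1763 counts against 970, with a log2FC of -0.97. Reads of these copies could have been exchanged, and Scp2-ps2 held 4.21% of their summed counts in control against 4.16% in knockdown cells. Acaa1a, the thiolase of straight chains, had 2897 counts against 2585, with a log2FC of -0.27. Acaa1b had 128 counts against 92, with a log2FC of -0.58 and an interval from -0.99 to -0.19. The transcripts of these genes match at 96.6% over 1428 bases, so their split is uncertain. Acaa1b took 4.23% of their summed counts in control cells (3.57 to 5.01) against 3.44% in knockdown cells (2.81 to 4.20), with overlapping intervals.

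**Figure D3:**
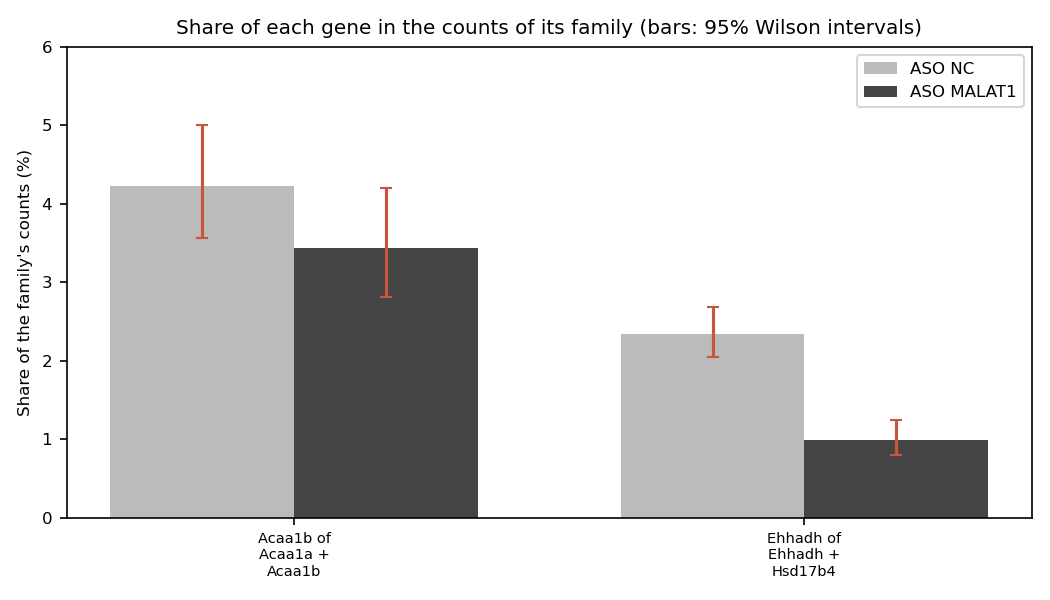
Share of a gene in the summed counts of its family in the control library (light bars) and the knockdown library (dark bars), with 95% Wilson intervals. The intervals of the libraries are separate for Ehhadh and overlap for Acaa1b.

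The isomerase and the reductases of unsaturated acyl-CoA were not called. Ech1, a dienoyl-CoA isomerase, had 9526 counts in control against 7880 in knockdown cells, with a log2FC of -0.38. Decr2, the peroxisomal dienoyl-CoA reductase, had 1293 counts against 1407, with a log2FC of 0.02 and an interval from -0.10 to 0.13, and Pecr, an enoyl-CoA reductase, had 797 counts against 741, with a log2FC of -0.21. Of the branched-chain enzymes, 1 was called. Amacr, the racemase that prepares branched acyl-CoA for oxidation (chromosome 15, 10981756 to 10996626, plus strand), had 2051 counts against 1373, with a log2FC of -0.69 (95% interval -0.79 to -0.59), and was called lower. Phyh, which starts the α-oxidation of phytanic acid, had 267 counts against 271, with a log2FC of -0.09 and an interval from -0.33 to 0.16.

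The enzymes that prepare products for export were not called. Crot, the carnitine octanoyltransferase that turns medium-chain acyl-CoA into carnitine esters, had 2169 counts in control against 2619 in knockdown cells. Its log2FC was 0.17 (95% interval 0.08 to 0.25), the only member whose interval lay above 0, and it was under the 1.5-fold line. Acot8, a thioesterase, had 791 counts against 803, with a log2FC of -0.08 and an interval that included 0.

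Both peroxisomal membrane proteins had values below 0. Pxmp2, a pore-forming protein (chromosome 5, 110274282 to 110286186, minus strand), had 289 counts against 204, with a log2FC of -0.61 (95% interval -0.88 to -0.35), and was called lower. Pxmp4 had 8900 counts against 6481, with a log2FC of -0.56 (95% interval -0.61 to -0.52), which fell short of 1.5-fold.

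The medians of the biogenesis and lipid genes differed by 0.08 on the log2 scale, with the lipid genes the closer to 0. The spread within each group was far wider, from -0.90 to 0.09 for biogenesis and from -1.51 to 0.17 for lipid genes, and no test across genes was run. When counts were summed, the lipid genes were the group farther below 0. The biogenesis genes summed to 37801 counts in control against 30973 in knockdown cells, with a log2FC of -0.39, and the lipid genes to 76158 and 55224 counts, with a log2FC of -0.57. Scp2 had 40131 and 22326 of these lipid counts, and without it the lipid genes summed to 36027 and 32898 counts, with a log2FC of -0.24.

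**Figure D4:**
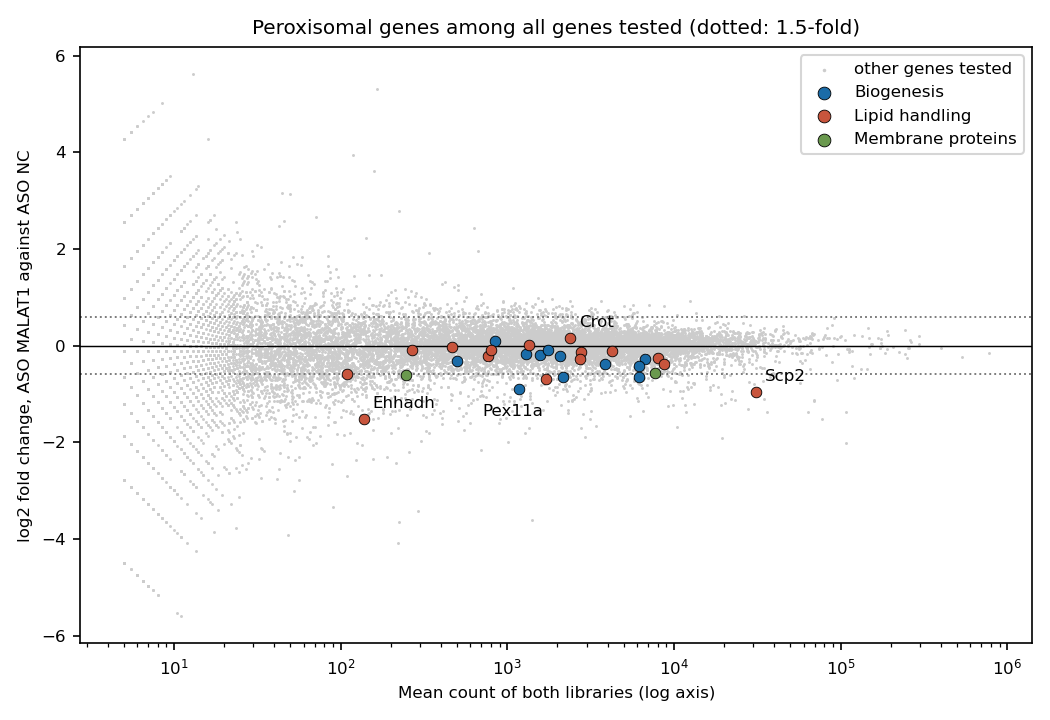
Log2 fold change against the mean count of both libraries (log axis) for all 17356 genes tested (grey) and the 29 peroxisomal genes (coloured by group), with lines at 1.5-fold. The peroxisomal genes lie mostly under 0 at medium and high counts, and the values of weakly counted genes scatter more widely.

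The wider list of peroxisomal genes outside the 29 holds 52 genes, of which 39 had enough counts to be tested. Their median log2FC was -0.17, with 4 called lower and 1 called higher, against 7.27% and 4.37% of all genes tested. Among the 15 lipid genes tested, with a median of -0.33, 3 were called lower. Acox2, the oxidase of bile acid intermediates, had 357 counts against 179, with a log2FC of -1.10. Crat, a carnitine acetyltransferase of peroxisomes and mitochondria, had 13888 counts against 7825, with a log2FC of -0.93. The remaining gene, Acot12, had 55 counts against 21. The 7 further biogenesis genes tested, which include the fission genes Fis1, Dnm1l and Mff, had a median of -0.02, with 0 called lower and 1 called higher, Trim37, at 27 and 55 counts. In the synthesis of plasmalogens, ether lipids that begin in the peroxisome, 1 of 5 genes tested was called lower. This was Gnpat, the acyltransferase of the first step, at 20647 counts against 12323, with a log2FC of -0.85. Of the 12 redox and other enzymes tested, with a median of -0.29, 0 were called, and catalase (Cat) had 37682 counts against 29547, with a log2FC of -0.46.

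Mitochondrial beta-oxidation genes, which take over the shortened chains, had a median log2FC of -0.46 over 18 genes tested. Called lower were 3 (Acadm, Cpt2 and Echs1), against 7.27% of all genes tested, and 1 was called higher, against 4.37%. This was the weakly counted Acadvl, at 135 counts in control against 548 in knockdown cells, where Acadm had 37469 against 23320. Of 10 genes for PPAR receptors, their partners and coactivators, 2 were called lower, against the same background of 7.27%. These were Ppard with 118 counts against 52 and Ppargc1b with 2770 counts against 1685. Pparg itself had 11816 counts in control against 8552 in knockdown cells, with a log2FC of -0.57, which fell short of the 1.5-fold line. Ppara, which encodes PPARα, had only 27 counts against 24, with a log2FC of -0.27 and an interval from -1.13 to 0.57.

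**Figure D5:**
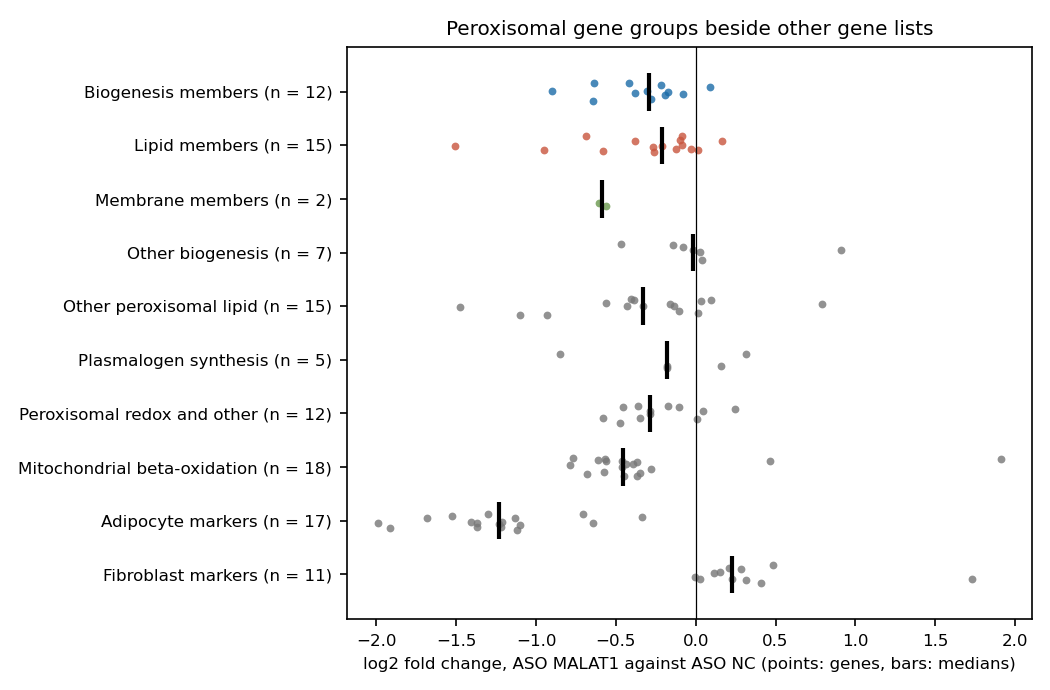
Log2 fold change of the genes tested in each list (points) with the median of the list (black bar); the peroxisomal groups are coloured and other lists are grey. The adipocyte markers have the lowest median, at -1.23, the peroxisomal lists lie closer to 0, and the fibroblast markers have a median of 0.23.

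Promoter sequences from RefSeq (GRCm38.p6, 250 bases before to 50 bases after the start) were at hand for 23 of the 29 genes, in 27 windows; no window was used for Abcd2, Amacr, Hsd17b4, Pex19, Pex2 and Pxmp2. They were searched on both strands for the hexamer AGGTCA of nuclear receptors, for its direct repeat with 1 base between, to which PPAR binds with RXR, with up to 2 mismatches, and for the GC box GGGCGG, a letter string added after the data were seen. An exact repeat also holds the hexamer. AGGTCA was in 2 of 27 windows (7.41%), those of Scp2 and Phyh, against 16.3% of all 32851 windows. The direct repeat was in 0 of 27 windows, against 3.86% of all. GGGCGG was in 19 of 27 windows (70.4%), against 35.7% of all, and the median GC content was 57.3% against 52.7%. Elements farther from the start were not searched. In a check of 1 window per gene, the 30 bases after the start occurred in an annotated transcript of the gene for 17 of the 23 genes. The log2FC of Phyh was -0.09. The 250 bases before the start are shown for Scp2, which holds the hexamer and has the most counts, and for Ehhadh, which has the largest difference. Capitals mark the hexamer AGGTCA and the box GGGCGG, or their reverse complements. The start used for Scp2 lies inside the gene span given above, because some annotated transcripts start farther upstream. The start used for Ehhadh lies upstream of its annotated span, which ends at 21787807. The 30 bases after that start are thus not all inside the annotated gene.
Scp2 (chr4:108118548-108118797, minus strand): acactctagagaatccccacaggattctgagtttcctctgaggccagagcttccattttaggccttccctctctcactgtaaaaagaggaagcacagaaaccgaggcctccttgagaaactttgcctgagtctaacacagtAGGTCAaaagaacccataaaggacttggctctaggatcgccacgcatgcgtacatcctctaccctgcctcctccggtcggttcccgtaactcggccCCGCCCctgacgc
Ehhadh (chr16:21787835-21788084, minus strand): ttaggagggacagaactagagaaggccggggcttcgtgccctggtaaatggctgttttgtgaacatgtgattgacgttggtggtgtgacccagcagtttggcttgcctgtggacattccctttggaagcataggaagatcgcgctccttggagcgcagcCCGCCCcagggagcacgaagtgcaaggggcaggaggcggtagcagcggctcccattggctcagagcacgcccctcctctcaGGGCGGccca
The Scp2 stretch holds the hexamer at 1 place, far upstream of a GC box, and the Ehhadh stretch holds 2 GC boxes and no exact AGGTCA.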

How the data were processed

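RNA-seq was performed on total RNA after rRNA removal, with a directional library kit, from 1 control and 1 MALAT1-knockdown culture. The authors deposited raw counts of reads per gene symbol, without normalization. The submitters' processing notes name HISAT2 and GRCm38; the counting tool, annotation, strand setting and treatment of multi-mapping and duplicate reads are not given in the sources used here. Duplicate reads would make the counting intervals too narrow.

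Genes with at least 10 summed counts were kept (17356 of 46095). For scaling, TMM factors were taken from edgeR 4.0.16 (R 4.3.3), and log2 fold changes used a prior count of 0.5. With 1 library per group no replicate-based test could be fitted, so an exact binomial test (scipy 1.17.1, smaller tail doubled) was used. Fold changes were given Clopper-Pearson 95% intervals, and shares Wilson intervals. The test was checked on data simulated with counting error only, so that check could not cover variation between cultures. Calls needed an adjusted p under 0.05 and at least 1.5-fold or 2-fold. Positions, overlaps and merged exon lengths came from GENCODE M21 (GRCm38), matched by symbol for 29 of 29 members; it is not known to be the authors' annotation. Near-identical transcripts were sought with BLAST+ 2.17.0 (at least 90% identity over 200 bases). A planned search of protein targeting signals was not run, since no protein sequences were used here.

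The members and lists were chosen with earlier results of these data known. Every member was to be named, with full values for those at least 1.5-fold different and for the most counted and most different gene of each group; of other pathway genes, those at least 1.5-fold different with at least 100 summed counts and fixed partners of members were to be named, together with Pparg, Malat1, Adipoq, Fabp4 and Plin1 as checks. Acot12, Trim37, Pex11g, Ppara, Cpt1a, Lep and the markers of other cell types fall outside this rule. They were named after their values were seen, as was the pair of Ehhadh with Hsd17b4. Some planned genes and families are not reported here, and their genes were left out of the pathway lists and list counts.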

Additional observations from a re-analysis of the deposited data

How the results depend on the processing

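Other scalings (upper-quartile factors, totals of each library, size factors of DESeq2 1.42.0), keeping all genes or those with at least 10 counts in each library, and a prior count of 2 were tried. Over these 6 alternatives, the 174 values of the 29 members kept their direction and their side of the 1.5-fold line, none moved by more than 0.0221 on the log2 scale, and the counts of 7 members lower by 1.5-fold and 1 by 2-fold stayed. The median of all genes lay between -0.0136 and 0.0190. With edgeR's exact test the counts depended on the assumed variation between cultures: at a biological coefficient of variation of 0.1, 6 members were lower by 1.5-fold and 1 by 2-fold, while at 0.2 and at 0.4 there were 0 and 0. Of all 17356 genes tested, 1079 had an adjusted p under 0.05 at 0.1, 117 at 0.2 and 1 at 0.4. Unadjusted, p was under 0.05 for 3 members at 0.2 and 0 at 0.4. Without genes under a mean of 1000 counts, the share of genes lower by 1.5-fold was 2.84% in place of 7.27%. No member had under 100 summed counts, so leaving such members out left the difference of the medians at 0.08. Without Scp2, chosen after the data were examined, the median of the members was -0.27. No paired analysis was possible because each group has 1 library, and no replicate could be left out.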
